A study of Mus musculus with 57 samples.

Results

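RNA was sequenced from CD11b-positive brain cells, labelled microglia, of adult mice deficient in the receptor P2RY12 (KO) and of wild-type (WT) littermates, with no treatment named for these groups. The comparison holds 18 of the 57 labelled libraries. They are all columns of 1 of the 2 deposited count tables, assigned to KO or WT by the genotype in the column name, and sex enters as a covariate. Males numbered 4 WT and 5 KO, and females 4 WT and 5 KO. The labels give neither the strain nor the design of the KO allele, so which piece of the P2ry12 gene was removed is not known here. A protocol text shared by every library speaks of lipopolysaccharide injected into the peritoneum without saying which animals received it. Saa3, an acute-phase gene that rises steeply after lipopolysaccharide, lay between 0 and 0.212 CPM in WT and between 0.0228 and 0.362 CPM in KO. CPM is the usual depth-normalised read count, here also scaled between libraries for their composition. Each column was taken as 1 animal, and the labels do not tie animals to litters, so p-values measure the spread between these samples.

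P2RY12 is a G-protein-coupled receptor for extracellular ADP that acts through inhibitory G proteins. In the brain it is found mainly on microglia, the resident macrophages, where it steers their processes toward ATP and ADP released by active or injured cells. Its transcript is among the genes that define unstimulated, homeostatic microglia, and it declines when these cells are activated. P2ry13 and P2ry14, receptors for ADP and for nucleotide sugars, lie beside it, and all 3 lie inside the span of Med12l, a Mediator subunit gene on the opposite strand.

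Column totals ran from 58.5 M to 318.5 M counts with a median of 92.0 M, and 31709 of 50565 genes passed the filter on low counts and were tested. Microglial markers were abundant in all libraries, with the 10 listed markers summing to between 27180 and 43350 CPM in WT and between 31340 and 36100 CPM in KO. Male WT 5 and female WT 2 stood apart in markers of neutrophils, the granulocytes of blood. S100a9, an abundant neutrophil protein, was at 14530 CPM in male WT 5 and 9048 CPM in female WT 2, whereas the other 16 animals lay between 236.3 and 2387 CPM. Results that rest on these libraries are therefore given also with both left out, which is called "without both" below. In bulk RNA, fewer cells of a type and less RNA per cell cannot be told apart.

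P2ry12 was strongly reduced in every KO animal of both sexes but was not absent. The gene lies at chr3:59123692-59170408 of GRCm39 on the minus strand. In male WT animals its level was 5928, 5049, 5407 and 3195 CPM, and in female WT animals it was 4880, 3007, 4359 and 4827 CPM. Male KO animals read 504.6, 438.8, 451.7, 526.4 and 488.7 CPM, and female KO animals 341.5, 309.3, 429.7, 362.5 and 437.7 CPM. The groups did not overlap, and male WT 5 and female WT 2 held the lowest WT values. The KO level was 0.0931 times the WT level, a log2 fold change of -3.42 ± 0.12 (standard error) with an adjusted p of 6.35e-14 (edgeR quasi-likelihood test, Benjamini-Hochberg adjustment). The fall was -3.34 on the log2 scale in males and -3.50 in females. A gene counts as called below when this adjusted p is under 0.05.

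**Figure D1:**
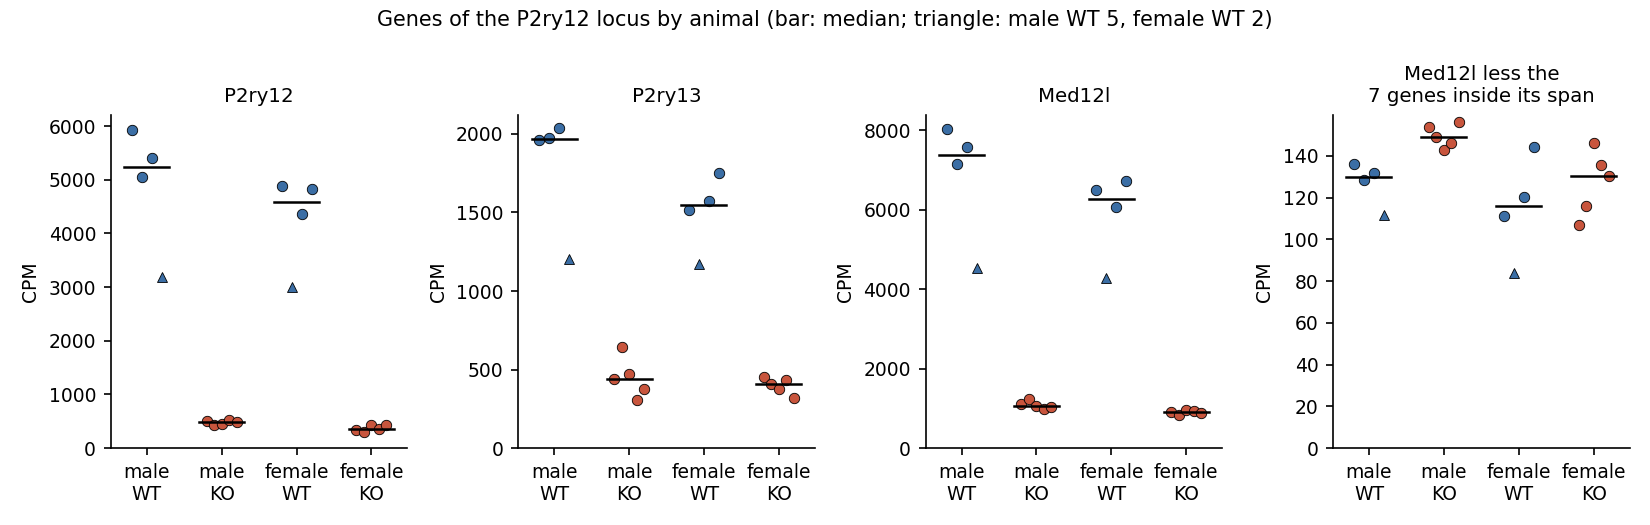
CPM of P2ry12, P2ry13, Med12l and Med12l after subtraction of the 7 genes inside its span, for each of the 18 animals by sex and genotype (linear axes from 0, points are animals, bars medians, triangles male WT 5 and female WT 2). For P2ry12 the KO animals sit between 309.3 and 526.4 CPM and the WT animals between 3007 and 5928 CPM, while the subtracted Med12l level overlaps between genotypes.

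By the same test 2 further genes were called lower, and both are neighbours of P2ry12. DESeq2 called 30 genes lower, and 24 were called lower without both. P2ry13, which also encodes an ADP receptor of microglia, lies at chr3:59115313-59118303 on the minus strand. Its level was 1171 to 2035 CPM in WT (median 1664) and 307.9 to 643.3 CPM in KO (median 422.5), without overlap. The log2 fold change of P2ry13 was -1.96 ± 0.13 (adjusted p = 5.86e-08), with -2.004 in males and -1.92 in females. Med12l, at chr3:58912820-59225867 on the plus strand, ran from 4272 to 8031 CPM in WT (median 6618) and from 839.7 to 1235 CPM in KO (median 969.5). Its log2 fold change was -2.68 ± 0.10 (adjusted p = 2.31e-13). The counted length of every gene is its whole span, so reads of genes lying inside Med12l are also part of its count. After subtraction of the counts of the 7 genes inside it, P2ry12, P2ry13 and P2ry14 among them, Med12l read 83.7 to 144.3 CPM in WT (median 124.4) and 106.8 to 156.1 CPM in KO (median 144.5). The fall was thus not present in the remainder, where the KO mean was higher by 0.20 on the log2 scale (2-sided exact permutation test within sex, 15876 permutations, p = 0.0325). Without both, that difference was 0.10 (exact p = 0.178, 3136 permutations). Med12l reads inside the P2ry12 span would likewise enter the P2ry12 count, and their share of the KO level was not measured.

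P2ry14 and Gpr171, also of the cluster, did not pass the test. P2ry14 was at 1.63 to 11.7 CPM in WT (median 2.34) and 0.774 to 3.96 CPM in KO (median 1.83), which is -1.02 ± 0.414 on the log2 scale (adjusted p = 0.492). Its highest WT values were those of male WT 5 (11.66 CPM) and female WT 2 (7.67 CPM), and the log2 fold change without both was -0.11. Gpr171, a further G-protein-coupled receptor of the cluster, read -0.05 (adjusted p = 0.997). Igsf10, an immunoglobulin-superfamily gene at chr3:59224156-59256836 on the minus strand whose end overlaps that of Med12l, was called higher. Igsf10 ran from 20.7 to 33.9 CPM in WT (median 30.1) and from 31.3 to 45.3 CPM in KO (median 40.0), 0.43 ± 0.0855 on the log2 scale (adjusted p = 0.025), and the groups overlapped by 2 KO animals. Its lowest WT values were those of female WT 2 (20.7 CPM) and male WT 5 (23.01 CPM). Without both, Igsf10 read 0.32 (adjusted p = 0.0082). It was called in 10 of 18 fits that each left out 1 library.

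Further along chromosome 3 few genes were called. Within 0.5 Mb on either side of P2ry12, 3 of 16 other tested genes were called (Med12l, P2ry13 and Igsf10), and none was added out to 20 Mb, where 279 were tested and their median log2 fold change was -0.06. Over the whole chromosome 14 of 1602 other tested genes were called, 12 of them higher. Rxfp1, the receptor for relaxin, lies at chr3:79548910-79645258, about 20.45 Mb from P2ry12, and was lower without overlap of the groups. It ran from 3.398 to 7.22 CPM in WT (median 4.67) and from 0.166 to 3.23 CPM in KO (median 1.61), yet its log2 fold change of -1.58 ± 0.487 did not pass the test (adjusted p = 0.297). In the other deposited table, described at the end, Rxfp1 was called lower.

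**Figure D2:**
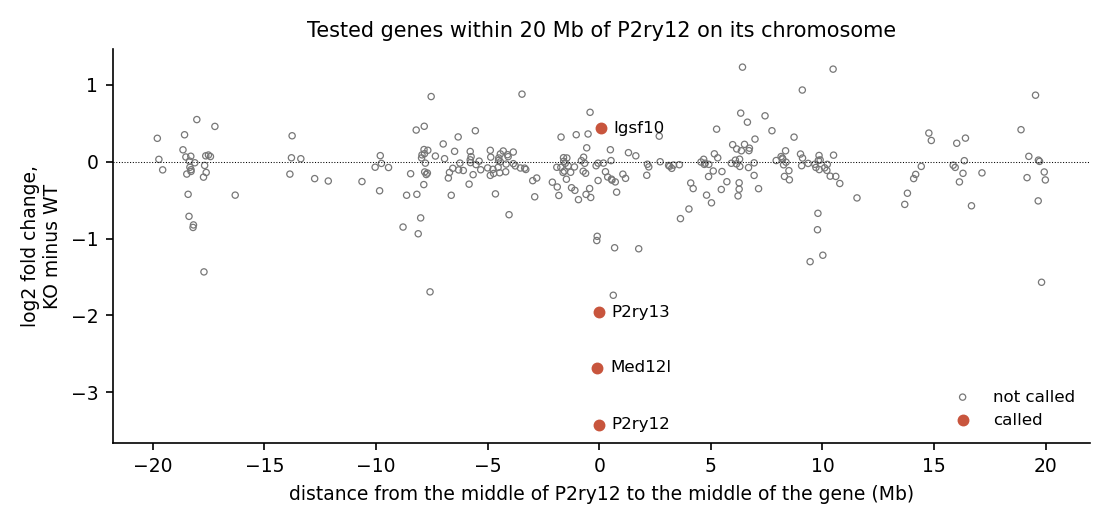
Log2 fold change of KO against WT for each tested gene within 20 Mb of P2ry12, plotted against the distance between gene middles in Mb (filled points are called, open points are not). The called genes P2ry12, Med12l, P2ry13 and Igsf10 all sit at the centre, and no gene farther out within the window is called.

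In all, 118 genes were called, which is 0.372% of those tested. Of these, 115 were higher in KO (0.363% of those tested) and 3 were lower (0.00946%). Over the whole table the median log2 fold change was -0.01, and 46.4% of genes were positive. Before adjustment 2858 genes had a p under 0.05, 1428 of them higher in KO. The called increases were small, from 0.27 to 1.75 on the log2 scale with a median of 0.44, which is a fold of 1.21 to 3.36 with a median of 1.36, and 11 of the 115 reached a log2 fold change of 1. In 105 of the 115 every KO animal lay above the WT median, a count that choosing genes higher in these animals favours. Its share over all tested genes was not taken. In 20 of the 115 the groups did not overlap. Over all tested genes, every KO animal lay above every WT animal in 22 (0.0694%) and below in 5 (0.0158%). The 5 were P2ry12, Med12l, P2ry13, Rxfp1 and Rspo1. Rspo1, a secreted activator of Wnt signalling, ran from 2.52 to 3.32 CPM in WT and from 1.55 to 2.51 CPM in KO, a log2 fold change of -0.50 ± 0.113 (adjusted p = 0.0516).

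**Figure D3:**
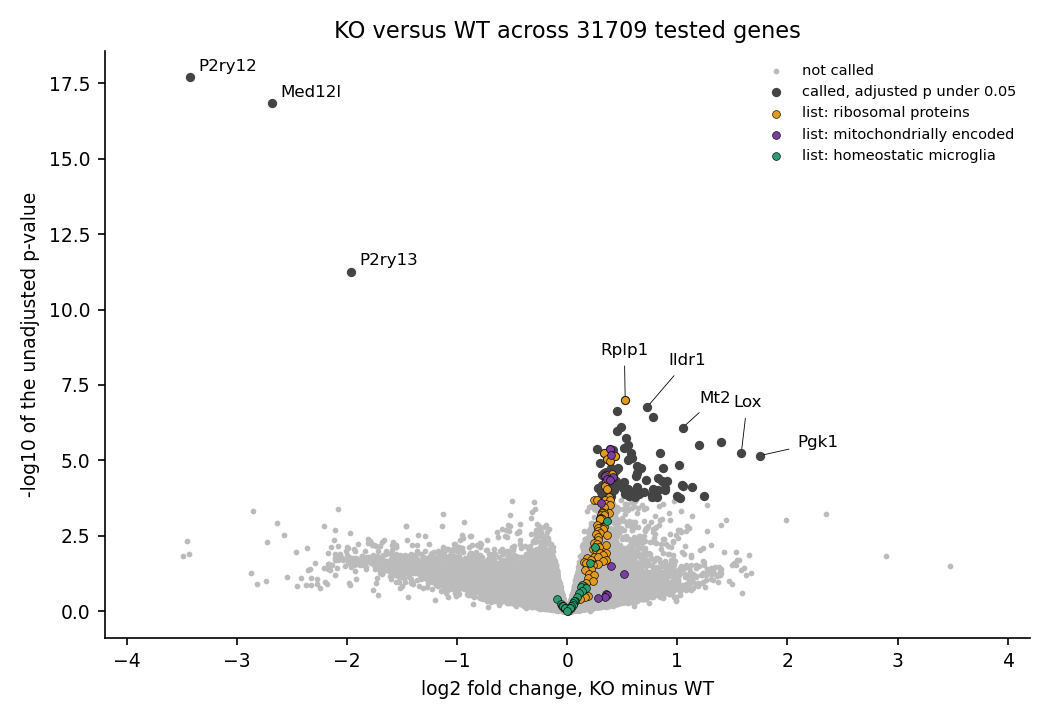
Each of the 31709 tested genes by log2 fold change of KO against WT (horizontal) and -log10 of the unadjusted p (vertical), with called genes dark and the ribosomal protein, mitochondrially encoded and homeostatic lists coloured. P2ry12, Med12l and P2ry13 stand alone on the lower side, the ribosomal and mitochondrial lists lie to the right of 0, and the homeostatic list lies around 0.

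The number of KO versus WT calls depended on single libraries. Leaving out 1 library at a time gave 293 calls without male WT 5 and 37 without male WT 4. It gave 38 without male KO 2, 47 without male WT 3, 57 without female WT 1, 58 without male KO 5, 59 without female KO 4 and 60 without female KO 2. Between 68 and 74 genes were called without male KO 1, female WT 2, female WT 3, female WT 5 or female KO 5, and 81 to 118 without any one of the other 5. Without both, 292 of 31895 genes were called (0.916%), 268 higher and 24 lower, and they included 105 of the 118. P2ry12, P2ry13, Med12l and 31 of the increased genes were called in all 18 such fits and by DESeq2. None of the 118 changed direction in any of 33 alternative analyses in which it was tested, but they had been chosen for their change in these animals. Outside the 118 some directions did depend on libraries, as several list medians given below without both show.

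No called gene differed in direction between the sexes. All 118 had the same sign in males and females, which choosing them on the effect over both sexes favours. No gene was called for a difference of the KO effect between the sexes (0%, edgeR quasi-likelihood test), and DESeq2 called 0. Before adjustment 879 genes had a p under 0.05 for that difference, 650 of them with the higher log2 fold change in females. Within the model with separate sex effects, 3 genes were called in males and 52 in females, 49 of these higher. These separate counts do not show that females responded more, since the test of the difference called none. Nor does the absence of a call show that the sexes responded alike.

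Transcripts of the mitochondrial genome had higher fitted levels in KO, and 10 of the 35 tested were called. This genome encodes 13 subunits of the respiratory chain together with the ribosomal and transfer RNAs that translate them. All 13 protein-coding genes had positive fold changes, with a median log2 fold change of 0.36 (all genes: -0.01), and 6 were called higher. ND4, a subunit of complex I, ran from 798.6 to 962.3 CPM in WT (median 868.6) and from 973.3 to 1283 CPM in KO (median 1190). No KO animal overlapped WT for ND4, whose log2 fold change was 0.39 ± 0.063 (adjusted p = 0.00785). CYTB, of complex III, rose from a WT median of 2135 CPM (1934 to 2481) to a KO median of 2878 CPM (2453 to 3182), 0.40 ± 0.067 on the log2 scale (adjusted p = 0.00919), and 9 of 10 KO animals exceeded all WT. The other called genes were the complex I subunits ND1 (0.35, adjusted p = 0.0219), ND2 (0.41, adjusted p = 0.0231), ND5 (0.36, adjusted p = 0.0241) and ND6 (0.39, adjusted p = 0.0241). COX1, a catalytic subunit of complex IV and an abundant member, read 0.30 and just missed the threshold (adjusted p = 0.0592). Neighbouring mitochondrial genes overlap in this annotation, so ND1, ND2, ND4, ND5 and ND6 are not fully separate counts.

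The transfer RNA genes of the mitochondrial genome followed the same direction. All 20 tested were positive, with a median log2 fold change of 0.33, and 4 were called higher: TrnL1, TrnT, TrnW and TrnY. TrnL1, a leucine transfer RNA, ran from 28.5 to 39.2 CPM in WT (median 34.7) and from 40.4 to 53.8 CPM in KO (median 48.0), 0.45 ± 0.0662 on the log2 scale (adjusted p = 0.00328) and without overlap. TrnT, TrnW and TrnY read 0.63 (adjusted p = 0.0219), 0.52 (adjusted p = 0.00785) and 0.55 (adjusted p = 0.0109). The RNA was poly(A)-selected, and whether these reads came from the transfer RNAs or from adjoining mitochondrial transcripts was not tested. They are therefore not separate evidence on transfer RNA levels. Both mitochondrial ribosomal RNAs were positive (median 0.25) and neither was called. The share of all counts falling on the mitochondrial genome was 1.2% to 1.47% in WT (median 1.245%) and 1.5% to 1.89% in KO (median 1.645%), without overlap.

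Few nuclear genes of the same complexes were called. Of 76 nuclear-encoded respiratory chain genes 1 was called, 36 were positive, and the median log2 fold change was 0.00. The called gene was Cox7a2l, which helps assemble respiratory supercomplexes, at 52.9 to 64.7 CPM in WT (median 60.0) and 65.9 to 80.6 CPM in KO (median 72.8), 0.30 ± 0.0532 on the log2 scale (adjusted p = 0.0125). Cox7a2l did not overlap between the groups. The call count of the 13 mitochondrial protein genes was 2 without male WT 3, male WT 4 or male KO 2, 3 without female KO 4 and 5 to 7 otherwise, with medians of 0.34 to 0.44, and without both it was 7 with a median of 0.38.

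Genes of the cytosolic ribosome mostly had positive fold changes, and a minority were called higher. These encode the protein components of the small and large ribosomal subunits. Of 80 tested, 79 were positive, 64 had an unadjusted p under 0.05 in that direction and 11 were called higher, none lower, with a median log2 fold change of 0.28 (all genes: -0.01). The called members were Rplp1, Rpl27a, Rps21, Rpl30, Rpl21, Rpl26, Rpl13a, Rps4x, Rpl22, Rpl14 and Rpl35. The median was 0.15 in males and 0.43 in females, a difference for which no member was called.

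Rplp1, an acidic protein of the ribosomal stalk that recruits translation factors, had the smallest p among the genes called higher. It ran from 88.8 to 120 CPM in WT (median 108.6) and from 134.1 to 185.5 CPM in KO (median 153.1), with no overlap. Its log2 fold change was 0.53 ± 0.0668 (adjusted p = 0.000819), with 0.38 in males and 0.67 in females. Rps21, of the small subunit, ran from 38.4 to 54.0 CPM in WT (median 46.8) and from 50.8 to 73.4 CPM in KO (median 64.1), 0.44 ± 0.0737 on the log2 scale (adjusted p = 0.00924), and 9 of 10 KO animals lay above all WT. Rps4x, the most abundant called member, ran from 232 to 299 CPM in WT (median 255.2) and from 287.8 to 402.9 CPM in KO (median 318.5) and read 0.36 (adjusted p = 0.0241), with overlapping groups. Rpl27a and Rpl30 of the large subunit read 0.34 (adjusted p = 0.00849) and 0.36 (adjusted p = 0.0103). Ribosomal protein genes have many near-identical pseudogenes to which reads can be assigned, so single members are less certain than the group. The called genes include Rps23-ps1, Rpl36a-ps2 and Rpl3-ps1, pseudogenes named after ribosomal proteins, at 0.40, 0.42 and 0.31.

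Elongation factor subunits, which exchange GDP for GTP on the factor that brings aminoacyl transfer RNA to the ribosome, were among the called genes. Eef1d ran from 51.4 to 58.1 CPM in WT (median 52.9) and from 58.4 to 69.5 CPM in KO (median 64.9), without overlap, and read 0.27 ± 0.044 (adjusted p = 0.00785). Eef1b2 read 0.35 (adjusted p = 0.033), with 4 of 10 KO animals above all WT. The ribosomal count was sensitive to the libraries that stood apart. It was 50 of 80 without both, with a median of 0.39, and 48 without male WT 5 alone. In 9 of the other fits leaving out 1 library it was 5 to 7 and in 8 it was 8 to 11, and DESeq2 called 29. With the neutrophil marker level as a covariate 49 were called, and the median was 0.34.

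Among single genes the largest called increase was that of Pgk1, which encodes phosphoglycerate kinase, the enzyme forming the first ATP of glycolysis. Pgk1 lies at chrX:105230706-105247305. In male WT animals it ran from 6.33 to 8.44 CPM apart from 25.89 CPM in male WT 5, and over all WT animals the lowest, median and highest levels were 5.47, 8.42 and 25.9 CPM. In KO it ran from 28.4 to 51.3 CPM (median 35.8), so all 10 KO animals lay above all 8 WT. The log2 fold change was 1.75 ± 0.265 (adjusted p = 0.00919), with 1.73 in males and 1.76 in females, and 2.29 (adjusted p = 1.82e-10) without both. Of 26 genes of glycolysis and the hypoxia response Pgk1 alone was called by edgeR or DESeq2, 5 were higher and 4 lower at an unadjusted p under 0.05, 12 were positive and the median was -0.07. Without both the median was 0.11, and Tpi1, a triose isomerase, was called as well.

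Lox, a secreted copper enzyme that cross-links collagen and elastin, lies on chromosome 18 and was low but separated. It ran from 0.171 to 1.25 CPM in WT (median 0.832) and from 1.4 to 3.04 CPM in KO (median 2.31), 1.58 ± 0.263 on the log2 scale (adjusted p = 0.00849). Ildr1, an immunoglobulin-like receptor of tricellular junctions, ran from 15.2 to 23.98 CPM in WT (median 17.9) and from 21.5 to 41.3 CPM in KO (median 28.9), 0.73 ± 0.095 (adjusted p = 0.00108), with 9 of 10 KO animals above all WT. Rxrg, a retinoid X receptor, ran from 0.970 to 3.54 CPM in WT (median 2.29) and from 2.55 to 7.95 CPM in KO (median 4.67). Although 9 of 10 KO animals exceeded all WT, its log2 fold change of 1.27 ± 0.284 missed the threshold (adjusted p = 0.0628).

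**Figure D4:**
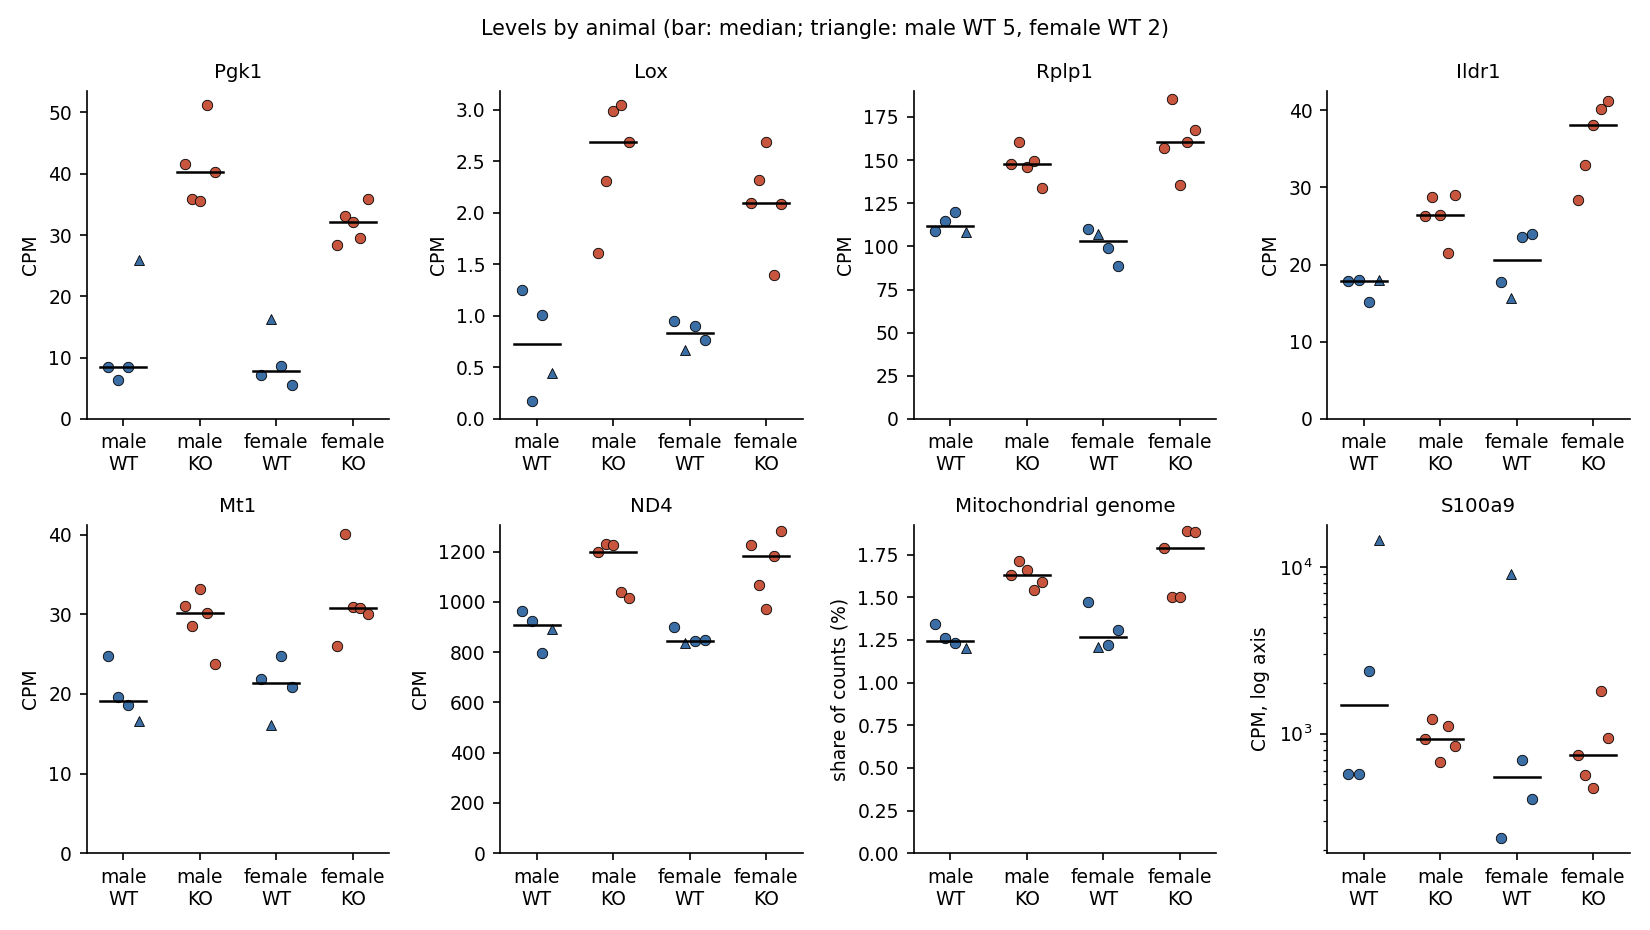
Levels by animal of Pgk1, Lox, Rplp1, Ildr1, Mt1 and ND4 (CPM, linear axes from 0), of the share of counts on the mitochondrial genome (percent) and of the neutrophil gene S100a9 (CPM, log axis), by sex and genotype. Bars are medians, and triangles mark male WT 5 and female WT 2, whose S100a9 levels of 14530 and 9048 CPM exceed those of all others and whose Pgk1 levels are the highest of WT.

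Most of the other large increases were low-level noncoding genes. B230311B06Rik (1.40, adjusted p = 0.00644), Gm32296 (1.25 ± 0.265, adjusted p = 0.0444), Gm30375 (1.198, adjusted p = 0.00721), 4930589L23Rik (1.05, adjusted p = 0.0308) and 4930406D18Rik (1.05, adjusted p = 0.0294) are annotated as long noncoding RNAs. B230311B06Rik had median levels of 0.273 CPM in WT and 0.752 CPM in KO, without overlap of the groups. Gm53543 (1.14, adjusted p = 0.0321) had no annotated class, and Gm46752 (1.02, adjusted p = 0.0474) is listed as protein-coding. Without both, 4930589L23Rik (adjusted p = 0.0537) and Gm46752 (adjusted p = 0.0813) missed the threshold. Of 18 fits leaving out 1 library, Gm32296 was called in 3, Gm46752 in 4, 4930406D18Rik in 5, Gm53543 in 7 and 4930589L23Rik in 8. The sexes differed in size for Gm32296, at 0.68 in males and 1.83 in females, and the difference was not called. By class the 115 increased genes were 63 protein-coding genes, 28 long noncoding RNAs, 14 pseudogenes, 1 transcribed pseudogene, 4 transfer RNAs and 5 without a match. The share called higher was 0.358% of protein-coding genes, 0.326% of long noncoding RNAs, 0.501% of pseudogenes and 5.71% of the 70 tested transfer RNAs. The 4 called transfer RNAs are the mitochondrial TrnL1, TrnT, TrnW and TrnY given above. Their share therefore restates the mitochondrial result and says nothing of transfer RNAs as a class. Spans that overlap another gene were no more frequent among the increased genes (55 of 115, 47.8%) than among all tested (50.5%), and joining overlapping spans left 100 loci.

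Metallothioneins, small cysteine-rich proteins that bind zinc and copper and are induced through the metal-responsive factor MTF1, were higher in KO. Mt1 and Mt2 are neighbours on chromosome 8, at chr8:94905214-94906955 and chr8:94899246-94900195 of GRCm39 on the plus strand. The 250 bases before each gene's start in the RefSeq windows of GRCm38.p6 are shown because both genes were called. Coordinates were not matched between the builds, so these starts need not be the first bases of the GRCm39 spans. The sequences are RefSeq's, from GRCm38.p6, at chr8:94178839-94179088 for Mt1 and chr8:94172368-94172617 for Mt2 on the plus strand. Capitals mark matches to the core of the metal response element, searched as TGCACNC or TGCGCNC on both strands.
Mt1: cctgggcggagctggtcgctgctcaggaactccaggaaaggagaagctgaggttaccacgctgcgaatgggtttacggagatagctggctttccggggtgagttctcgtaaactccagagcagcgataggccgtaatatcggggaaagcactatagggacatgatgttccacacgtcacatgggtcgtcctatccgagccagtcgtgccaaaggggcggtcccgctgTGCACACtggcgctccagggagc
Mt2: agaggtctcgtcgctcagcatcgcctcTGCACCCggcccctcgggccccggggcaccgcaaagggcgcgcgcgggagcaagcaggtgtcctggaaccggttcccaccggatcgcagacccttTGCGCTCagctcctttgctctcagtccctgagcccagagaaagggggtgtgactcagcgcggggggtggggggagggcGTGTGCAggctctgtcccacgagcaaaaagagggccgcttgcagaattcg
The Mt1 window had 1 match, TGCACAC at 23 to 17 bases before that start, and bases outside the windows were not searched. Mt2 had 3, namely TGCACCC at 223 to 217 and TGCGCTC at 128 to 122 bases before the start on the gene's strand, and TGCACAC at 50 to 44 bases on the other strand. Such matches are common, occurring in 21.4% of all 32851 windows of that length. Counted by gene, with the window of most matches taken, they occurred in 27% of 20459 tested genes. Among genes called higher they occurred in 22 of 62 (35.5%), and this difference was not tested. Shares by gene and by window are unlike units. At least 2 matches, as in Mt2, occurred in 5.17% of all windows. A match is a description of letters and not of binding.

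Mt1 ran from 16.1 to 24.8 CPM in WT (median 20.2) and from 23.7 to 40.1 CPM in KO (median 30.5), and 9 of 10 KO animals exceeded all WT. Its log2 fold change was 0.58 ± 0.0962 (adjusted p = 0.00849). Mt2 was lower in level, at 0.714 to 2.28 CPM in WT (median 1.24) and 1.05 to 4.29 CPM in KO (median 2.79), and a larger log2 change, 1.05 ± 0.152 (adjusted p = 0.0029) and overlapping groups. Slc39a4, a plasma-membrane importer of zinc, ran from 4.35 to 6.89 CPM in WT (median 5.91) and from 7.05 to 10.2 CPM in KO (median 8.13). Slc39a4 did not overlap between the groups and read 0.51 ± 0.101 (adjusted p = 0.025).

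Among other called genes, Hscb and Psat1 also separated the groups. Hscb, a co-chaperone of iron-sulphur cluster assembly in mitochondria, ran from 9.6 to 11.8 CPM in WT (median 11.0) and from 13.5 to 16.9 CPM in KO (median 14.8), 0.46 ± 0.0609 on the log2 scale (adjusted p = 0.00124). Psat1, an enzyme of serine synthesis, ran from 21.8 to 35.4 CPM in WT (median 31.2) and from 36.5 to 50.0 CPM in KO (median 42.3), 0.53 ± 0.0816 (adjusted p = 0.00518). Neither gene's groups overlapped, and both were called in all 18 fits leaving out 1 library. The groups overlapped for Castor1 and Vegfb. Castor1, an arginine sensor upstream of mTORC1, read 0.42 (adjusted p = 0.0211), and Vegfb, a growth factor of the VEGF family, read 0.40 (adjusted p = 0.0442) and was called in 3 of the 18 fits.

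A small set of immune genes was called higher, while most members of their lists were not. Lag3, an inhibitory receptor of the CD4 family, ran from 147.2 to 248.7 CPM in WT (median 206.8) and from 240 to 339.1 CPM in KO (median 305.4). It read 0.59 ± 0.1 (adjusted p = 0.0102), was called in all 18 fits leaving out 1 library, and 9 of 10 KO animals exceeded all WT. Ccl3, a chemokine for monocytes and T cells, ran from 188.1 to 283.5 CPM in WT (median 240.1) and from 248.5 to 470 CPM in KO (median 385.7), 0.58 ± 0.12 (adjusted p = 0.0366), and 0.62 without both, where it missed the threshold (adjusted p = 0.0561). Ccl4, its close paralog, read 0.62 and was not called (adjusted p = 0.166). Ccl3 was the single call among 22 inflammatory mediators, of which 14 were positive with a median of 0.06, or 0.30 without both.

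B2m, the invariant chain of MHC class I, ran from 1067 to 1206 CPM in WT (median 1151) and from 1131 to 1656 CPM in KO (median 1427), 0.32 ± 0.068 on the log2 scale (adjusted p = 0.0341). Its span overlaps Patl2, which read the same 0.32, and in these counts reads of the pair cannot be told apart. In the other deposited table the WT medians were 1240 CPM for B2m and 0.732 CPM for Patl2. B2m was the single call among 16 antigen presentation genes (13 positive, median 0.07, and 0.19 without both). Bst2, the antiviral protein tetherin, was the single call among 20 interferon-stimulated genes at 0.39 (adjusted p = 0.037, and 0.0597 without both), and 7 of these 20 were positive with a median of -0.04, which turned to 0.25 without both. Outside the lists, Cd83, a regulator of antigen presentation, read 0.42 (adjusted p = 0.029), and Ccrl2, a chemerin-binding receptor, read 0.63 ± 0.127 (adjusted p = 0.033). Mif, a cytokine, ran from 3.79 to 5.42 CPM in WT and from 5.60 to 7.33 CPM in KO without overlap and read 0.45 (adjusted p = 0.0296). St14, a membrane serine protease, Peli1, a ubiquitin ligase of Toll-like receptor signalling, and Il12rb2, a chain of the interleukin 12 receptor, read 0.56 (adjusted p = 0.0102), 0.32 (adjusted p = 0.0298) and 0.35 (adjusted p = 0.0341), and Il12rb2 missed the threshold without both (adjusted p = 0.0534). Several of these immune calls were lost when single libraries were left out. Of 18 such fits, Lag3 and St14 were called in all, B2m and Ccrl2 were called in 3, Ccl3 and Bst2 in 5, Il12rb2 in 6, Cd83 in 7, Peli1 in 9 and Mif in 10.

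Genes of the disease-associated microglial state, which microglia take on around plaques and dying neurons, were mostly positive but not called. Of 22 tested, 17 were positive with a median log2 fold change of 0.19 (0.08 in males, 0.29 in females). None was called by edgeR, 10 had an unadjusted p under 0.05, all higher, and DESeq2 called 3. Ctsl and Ctsb, lysosomal proteases, read 0.32 (adjusted p = 0.0689) and 0.30 (adjusted p = 0.0803), and Ctsd, another, read 0.28 (adjusted p = 0.291). Apoe, a lipid carrier, ran from 374.6 to 657.3 CPM in WT (median 453.3) and from 455.6 to 1362 CPM in KO (median 704.4), 0.65 ± 0.189 (adjusted p = 0.242). Without both, 3 of the 22 were called higher: the protease inhibitor Cst7 (0.81, adjusted p = 0.00128), the tetraspanin Cd63 (0.42, adjusted p = 0.00109) and the ferritin chain Fth1 (0.38, adjusted p = 0.00487). With all animals these read 0.44 (adjusted p = 0.568), 0.30 (adjusted p = 0.145) and 0.26 (adjusted p = 0.297). Among 28 phagocytosis and lysosome genes 21 were positive with a median of 0.09, edgeR called 0, 11 were higher and 1 lower at an unadjusted p under 0.05, and DESeq2 called 2. C1qa and C1qc, chains of the complement initiator C1q, were among its abundant members, and C1qa read 0.27 (adjusted p = 0.395).

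The homeostatic signature other than P2ry12 and its neighbours showed no called change. Of 24 tested genes edgeR called 0, 3 had an unadjusted p under 0.05, all higher, and DESeq2 called 1. Their median log2 fold change was 0.05, and it was -0.07 without both. Csf1r, the receptor on which microglia depend for survival, read 0.07 ± 0.087 (adjusted p = 0.951), and the KO range of 7452 to 8406 CPM lay inside the WT range of 5506 to 8689 CPM. Cst3, an abundant protease inhibitor, read 0.36 ± 0.0937 (adjusted p = 0.126), and its lowest WT value, 3519 CPM, was that of male WT 5.

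Partners of the receptor were not called either. The 32 genes of the P2Y12 signalling list, among them inhibitory G protein subunits and regulators of G protein signalling, had 7 positive members and a median of -0.04, and edgeR and DESeq2 called 0, with 1 gene at an unadjusted p under 0.05. Gnai2, an inhibitory G protein subunit, read -0.07. Rgs2 and Rgs1, which shorten G protein signals, read 0.00 and 0.36 (adjusted p = 0.523). The 23 other purinergic receptors and nucleotide enzymes had 10 positive members and a median of -0.01 (0.04 without both), and edgeR and DESeq2 called 0, with 1 higher and 1 lower at an unadjusted p under 0.05. Entpd1, which degrades extracellular ATP and ADP on microglia, read 0.09, the nucleoside transporter Slc29a3 read -0.09, and the ATP-gated channels P2rx4 and P2rx7 read 0.10 and 0.07.

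**Figure D5:**
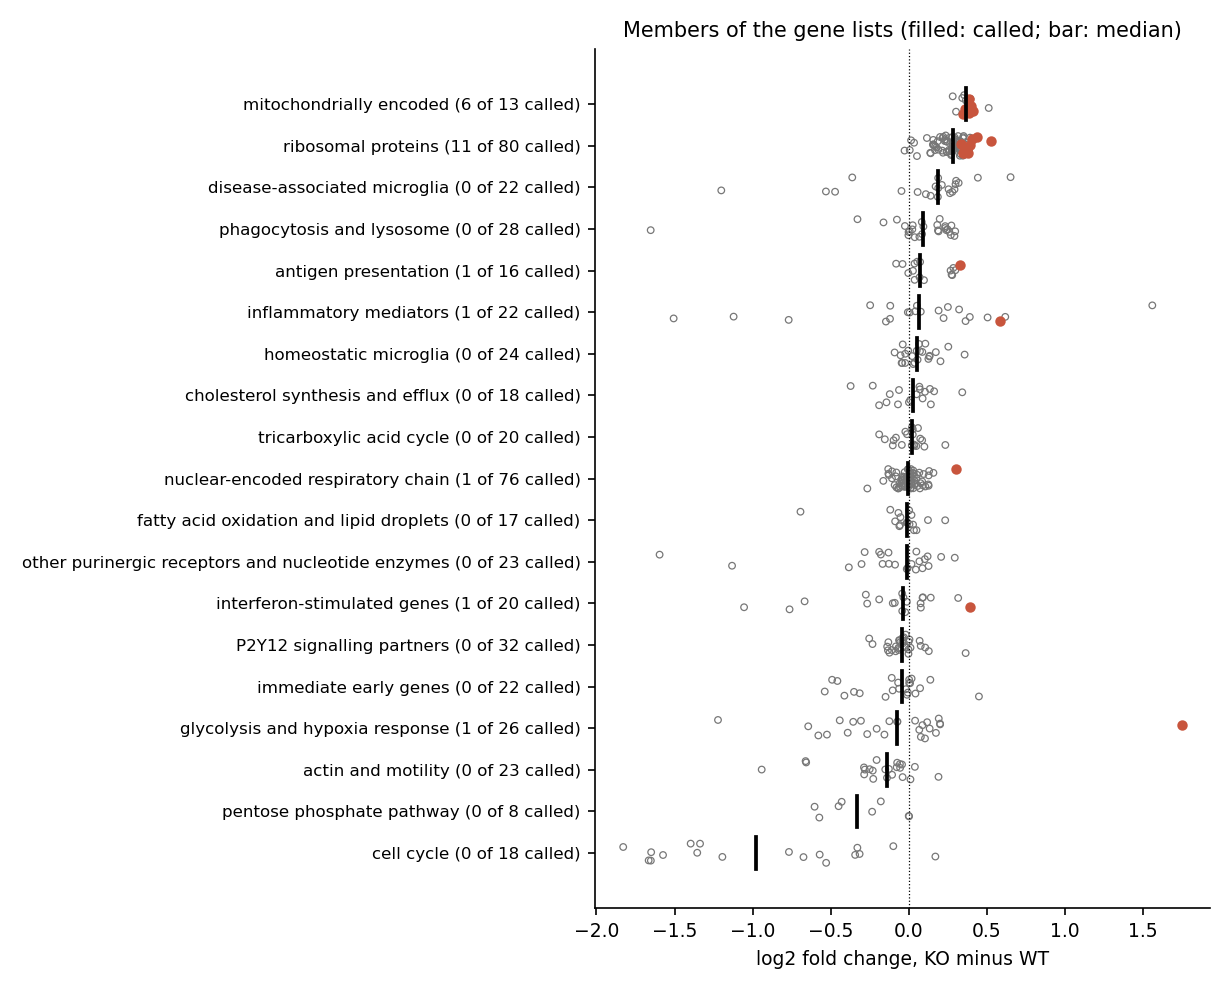
Log2 fold change of KO against WT for each tested member of the gene lists other than the P2ry12 locus (open points not called, filled points called, bars the list median). The mitochondrially encoded and ribosomal lists have medians of 0.36 and 0.28, the other medians lie between -0.98 (cell cycle) and 0.19 (disease-associated microglia), and Pgk1 is the filled point at 1.75.

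Metabolic lists outside the mitochondrial genome held no call other than Pgk1 and Cox7a2l. EdgeR and DESeq2 called 0 of 20 tricarboxylic acid cycle genes (median 0.02), 0 of 17 fatty acid oxidation and lipid droplet genes (median -0.01, 0.07 without both) and 0 of 18 cholesterol genes (median 0.03), each with 1 gene at an unadjusted p under 0.05. The 8 pentose phosphate genes, none of which had such a p or was called by edgeR or DESeq2, had a median of -0.33 that turned to 0.10 without both. Neither tool called any of 22 immediate early genes (median -0.04, 0.06 without both, 1 lower at an unadjusted p under 0.05) or any of 23 actin and motility genes (median -0.14, 0.06 without both, 1 higher and 1 lower at an unadjusted p under 0.05).

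Proliferation genes and blood-cell markers followed male WT 5 and female WT 2. The 18 cell cycle genes had a median of -0.98 with 8 lower at an unadjusted p under 0.05, edgeR and DESeq2 called 0, and the median without both was 0.25. Mki67, the proliferation antigen, read -1.65 (adjusted p = 0.509). All 9 neutrophil markers were negative (median -1.99, all at an unadjusted p under 0.05, 0 called by edgeR or DESeq2, and 0.23 without both). Their summed level ran from 754.6 to 50700 CPM in WT (median 2139) and from 1629 to 5689 CPM in KO (median 2936). All 6 monocyte markers were negative as well (median -1.04, 3 at an unadjusted p under 0.05, 0 called by either tool, and 0.28 without both), with sums of 101.4 to 3850 CPM in WT and 188.6 to 579.7 CPM in KO.

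Markers of other cells of brain and blood overlapped between genotypes, and no listed marker was at 0 in all animals. EdgeR called 0 of these markers, 1 astrocyte and 1 endothelial marker were higher at an unadjusted p under 0.05, and DESeq2 called 1, an endothelial one. Summed levels were 219.3 to 673.4 CPM in WT and 260.5 to 1206 CPM in KO for border-associated macrophages, and 49.6 to 141 and 56.3 to 272.9 CPM for T and NK cells. Female KO 4 (930.8 CPM) and female KO 5 (1206 CPM) stood above all other animals for border-associated macrophages. Female KO 5 also had the highest T and NK cell sum, followed by female KO 4 at 146.8 CPM. For B cells they were 300.7 to 416.1 and 350 to 478.4 CPM, and for erythroid cells 432.8 to 3977 and 442.2 to 3836 CPM. Astrocyte markers summed to 176 to 422.6 CPM in WT and 251.7 to 416.5 CPM in KO, with Slc1a3, a glutamate transporter, at 0.39 (adjusted p = 0.182). Oligodendrocyte markers summed to 101.4 to 160.9 and 98.8 to 136.9 CPM, oligodendrocyte precursors to 6.86 to 36.8 and 6.80 to 18.5 CPM, and neurons to 8.75 to 20.5 and 9.35 to 19.7 CPM. Endothelial markers summed to 59.7 to 67.8 CPM in WT and 64.8 to 83.3 CPM in KO, mural cells to 5.28 to 19.8 and 7.22 to 21.3 CPM, and ependymal and choroid plexus cells to 44.3 to 523.9 and 114.3 to 342.6 CPM.

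The other deposited table holds 8 WT and 8 KO libraries labelled ns, a term the labels do not define, and offers the same genotype contrast in other samples. Its reads were counted differently from those of the first table, so levels of a gene are not comparable between the 2. Several libraries stood apart. WT ns 1 and WT ns 5, both of library number 2, went against their label, with P2ry12 at 492.3 and 970.3 CPM and Saa3 at 1823 and 2606 CPM. WT ns 8 had Saa3 at 65.86 CPM, where the remaining libraries lay between 0.873 and 4.24 CPM. KO ns 6 had mitochondrial CYTB at 26350 CPM and Rplp1 at 2888 CPM, above all other libraries (CYTB at most 5346 CPM, Rplp1 at most 1126 CPM). With all libraries 9 of 15025 tested genes were called (0.0599%), and without the libraries of number 2 there were 10 calls among 15125 genes (0.0661%). Without KO ns 6 there were 9 (0.0592%), and without it and number 2 there were 93 among 15371 genes (0.605%), which became 61 when WT ns 8 was left out as well. KO ns 6 and WT ns 8 were left out after their values had been seen, and WT ns 8 stays in the other values given without number 2.

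P2ry12 read -2.26 ± 0.408 (adjusted p = 0.0573), -2.56 (adjusted p = 0.00158) without number 2 and -2.80 (adjusted p = 1.64e-07) without number 2 and KO ns 6. P2ry13 read -1.23 (adjusted p = 0.37) with all libraries and -1.93 (adjusted p = 0.000106) without number 2 and KO ns 6. Med12l, which fell with its inner genes in the first table, was at 37.7 to 89.95 CPM in WT and 58.7 to 107.6 CPM in KO there and read 0.33 ± 0.183 (adjusted p = 0.572). Igsf10 read -0.74 (adjusted p = 0.399), the opposite sign of the first table. Its WT median was 3.89 CPM here and 30.1 CPM in the first table, so the 2 signs do not compare like with like.

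Rxfp1, lower without a call in the first table, was called in the second. It ran from 0.678 to 12.3 CPM in WT (median 5.10) and from 0 to 0.207 CPM in KO (median 0.0432), so the groups did not overlap. The 2 lowest WT values were those of WT ns 1 and WT ns 5. The log2 fold change of Rxfp1 was -6.58 ± 0.676 (adjusted p = 0.000299), and it stayed called without number 2 (adjusted p = 0.000997), without KO ns 6 (adjusted p = 0.00102) and with library number as a block (adjusted p = 0.00613).

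Of the 115 genes called higher in the first table, 70 were tested in the second, and 63 of them (90%) were positive there, against 45% of all genes. The share was 66 of 70 (94.3%, against 46%) without number 2, 55 of 70 (78.6%, against 40.5%) without KO ns 6, and 69 of 71 (97.2%, against 46.7%) without both kinds of library. Few passed the test by themselves: 1 of 70 with all libraries, 2 of 70 without number 2 and 0 of 70 without KO ns 6. Without both kinds of library 8 of 71 passed. In that fit 42 of the 71 were higher at an unadjusted p under 0.05 (edgeR), against 937 of all 15371 genes. Pgk1 read 1.71 ± 0.288 (adjusted p = 0.0354) with all libraries and 2.13 (adjusted p = 0.0115) without number 2, but missed the threshold without KO ns 6 (adjusted p = 0.0979) and passed it without number 2 and KO ns 6 (adjusted p = 0.00268). With all libraries Lox was not called (adjusted p = 0.67). Without number 2 it was, at 1.76 (adjusted p = 0.0106), where its KO levels of 2.89 to 5.93 CPM lay above all remaining WT levels. Rxrg, not called in the first table, read 1.94 (adjusted p = 0.00233) and stayed called without number 2. Slc1a3, also not called there, read 0.86 (adjusted p = 0.0141) and lost the call without number 2 (adjusted p = 0.13). It was called without KO ns 6 (adjusted p = 0.0185) and without both kinds of library (adjusted p = 0.0157). With library number as a block, Pgk1 (adjusted p = 0.0704), Rxrg (adjusted p = 0.0669), Slc1a3 (adjusted p = 0.0704) and Lox (adjusted p = 0.527) did not pass. Mt1 read 0.46 (adjusted p = 0.739) and Ildr1 0.87 (adjusted p = 0.511), while Mt2 read -1.17 with all libraries and 0.87 without number 2.

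The mitochondrial and ribosomal lists read lower in this table without KO ns 6, the library with the highest CYTB and Rplp1. With all libraries the 8 mitochondrially encoded genes tested were all positive with a median of 0.78, and 74 of 80 ribosomal protein genes were positive with a median of 0.45. EdgeR and DESeq2 called 0 of either list, and at an unadjusted p under 0.05 edgeR had 0 mitochondrial genes and 1 ribosomal gene higher. Without KO ns 6 the lists had 6 of 8 and 34 of 80 positive, with medians of 0.15 and -0.05. Without number 2 alone the medians were 1.25 and 0.88, and without number 2 and KO ns 6 they were 0.30 and 0.14, with 8 of 8 and 76 of 80 positive. In that last fit edgeR called 0 mitochondrial genes and 1 ribosomal gene, and 7 and 29 were higher at an unadjusted p under 0.05.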

How the data were processed

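Raw read counts per gene were used as the authors deposited them: whole numbers, not normalized, in 1 table of 18 columns with gene coordinates, whose RefSeq chromosomes belong to GRCm39 per the file headers. The submitters' processing notes name FastQC, STAR 2.6.1, featureCounts, Subread, DESeq2 and GRCm39 without roles, and the strand setting is not given in the sources used here. In the table the length of each gene equals its whole span, and 79% to 89.2% of the counts up to 20 in a column were even. The labels also list 6 repeat libraries of these animals but the table has no columns for them. It is not stated if the 18 columns include those reads. Poly(A)-selected RNA was sequenced, per the labels.

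Genes were filtered with filterByExpr over the 4 groups, scaled by TMM and tested with edgeR 4.0.16 (quasi-likelihood F test, robust, sex and genotype as factors) in R 4.3.3, with limma 3.58.1 and DESeq2 1.42.0 also used. The common biological coefficient of variation was 35.1%, and column totals were 58.5 M to 318.5 M. Most low counts were even. How reads in overlapping genes were counted is not stated, but the Med12l count held reads of the genes inside it. These totals therefore need not equal the number of sequenced fragments. The standard error is the log2 fold change divided by the square root of F. CPM values use the TMM-scaled totals. Interaction, single-sex and second-table fits used the same steps, and the code was tested on simulated data. The alternatives were DESeq2, RLE scaling, 2 other low-count filters, a fold threshold, other models and covariates, single sexes, genes that overlap no other, and leaving out each animal. Chosen after seeing the data were halved counts, leaving out male WT 5 and female WT 2 together, a neutrophil covariate and, in the second table, leaving out KO ns 6 and WT ns 8.

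The 20 gene lists, the 14 marker lists and the genes at issue were chosen with earlier results of these data known. Named genes were the P2ry12 cluster, up to 10 called lower, the 10 called higher with the largest fold change, the 10 called higher with the highest mean CPM, up to 4 called genes of each list (or its 2 most abundant), and Pgk1, Rxrg, Slc1a3 and Ildr1. Igsf10, Rxfp1, Rspo1, Mt1, Slc39a4, Hscb, Psat1, Castor1, Vegfb, Lag3, Cd83, Ccrl2, Ccl4, Mif, St14, Peli1, Il12rb2, Eef1d, Eef1b2, TrnL1, TrnT, TrnW, TrnY, COX1, Apoe, Ctsl, Cd63, Fth1, Cst7, Cst3, Rgs1, P2rx4, P2rx7, Tpi1 and the ribosomal pseudogenes were named after their values were seen. Gene classes and the promoter windows come from RefSeq tables, and 94.8% of tested genes matched a class. Results for some genes are not reported here.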

Additional observations from a re-analysis of the deposited data

Results flagged for a closer look

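For each named gene, the highest and lowest animal of each group of 4 or 5 was set against the others of its group, and a value was picked out where its gap to the nearest animal took up most of the group's range. Of 464 groups, 56 (12.1%) held such a value, where chance alone gives about 1 in 20. Male WT 5 held 21, female WT 2 held 14, and the remaining animals 21.

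Male WT 5 was the highest of its group for neutrophil and monocyte markers: S100a9 (14530 CPM), S100a8 (12130 CPM) and Chil3 (2788 CPM). It was also highest for Mki67 (584 CPM), P2ry14 (11.66 CPM), Pgk1 (25.89 CPM) and Cst7 (17.27 CPM). Genes of carbon metabolism that stood out as highest in it were Pkm (684.3 CPM), Pgd (436.2 CPM), Tkt (534 CPM), Dlst (191.1 CPM), Ogdh (157.3 CPM), Hadha (132.1 CPM), Atp5a1 (272.8 CPM) and Atp5b (296.7 CPM). The MHC class I gene H2-D1 was also highest in it, at 680.1 CPM. Microglial genes stood out in it as the lowest of its group: P2ry13 (1204 CPM), Csf1r (5506 CPM), Tgfb1 (268.6 CPM), C1qc (1235 CPM) and Cst3 (3519 CPM).

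Female WT 2 was the highest of its group for the same blood-cell markers, S100a9 (9048 CPM), S100a8 (6585 CPM) and Chil3 (1528 CPM), and for Mki67 (279.2 CPM) and P2ry14 (7.668 CPM). Further values picked out in it as highest were Pkm (496.8 CPM), Pgd (301.9 CPM), Tkt (337.2 CPM), Tmsb4x (2935 CPM), Vcan (18.29 CPM) and Mbp (94.63 CPM). Picked out in it as lowest were Eef1d (51.38 CPM), TrnL1 (28.52 CPM) and Ctsl (542.2 CPM).

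In other WT animals the values were Rgs2 (781.6 CPM), Syt1 (6.273 CPM), Ildr1 (15.2 CPM) and Apoe (657.3 CPM) in male WT 4, Gm46752 (1.143 CPM) in male WT 1, and Bst2 (23.16 CPM) in female WT 3. In male KO animals they were Dlst (135.5 CPM), Hscb (16.26 CPM) and the haemoglobin genes Hbb-bs (2723 CPM) and Hba-a1 (453.7 CPM) in KO 1, B230311B06Rik (0.8838 CPM) and Mag (29.45 CPM) in KO 3, and Tmsb4x (1999 CPM) and Ctsl (728.7 CPM) in KO 5. Female KO animals gave Tnr (5.327 CPM) in KO 1, Gm53543 (1.53 CPM), Ifi27l2a (63.53 CPM) and C1qa (2410 CPM) in KO 2, Gnai2 (496.4 CPM) and Cst7 (8.74 CPM) in KO 3, and Il12rb2 (37.2 CPM) in KO 5. Rgs2 and Ildr1 in male WT 4 and Tmsb4x and Ctsl in male KO 5 were the lowest of their group. So were Gnai2 and Cst7 in female KO 3, and the other values of these animals were the highest.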

How the results depend on the processing

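The 118 KO versus WT calls became 330 with DESeq2 (300 higher, 30 lower), 226 among genes with a mean of at least 5 CPM, 189 with the listing of a repeat library as a factor, and 71 among genes that overlap no other, where all 60 of the original calls tested were shared. Fewer samples gave 2 calls in males, 3 in females and 7 in animals without a repeat library. A log2 fold change of at least 1 kept 14. Chosen after seeing the data, leaving out male WT 5 and female WT 2 gave 292 and a neutrophil marker covariate 322 (294 higher, 28 lower). Leaving out 1 animal gave 37 to 293. The causes of these changes were not tested. RLE scaling (109), no filter (161), 4 group means (137), a depth covariate (101) and halved counts (125) stayed within 1.5 times, and higher calls were 97.5% with TMM and 97.2% with RLE. Interaction calls were 0 in each alternative run.

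Whether replicate numbers pair the animals was not tested. Over 8 same-numbered pairs deviations correlated at 0.126 on average (-0.0544 to 0.354), with 5 pairs over 0.1, against -0.0296 over the 32 other pairs. With a replicate block 144 genes were called (137 higher, 7 lower), and 0 for the interaction. In the second table the block gave 4 calls in place of 9, DESeq2 gave 103, and no library set covariate 13. Chosen after seeing the data, leaving out number 2 with KO ns 6 gave 93, and those with WT ns 8 gave 61.

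Among 3756 values for 116 named genes, none changed sign where either fit called the gene. Of these values 3176 kept direction and side of the threshold, 406 lost the call and 44 gained it. The other 130 changed sign, with no call in either fit. Depth limits most the genes near 1 CPM or below, such as Lox and B230311B06Rik.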
